A study of Mus musculus with 24 samples.

Results

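The comparison described here is between 6 of the 24 arrays of the series, 3 of T6E cells that carried a dimerization-defective Notch1 (R1984A) and were treated with a gamma secretase inhibitor (R1984A-GSI), and 3 of T6E cells with the empty MigR1 vector in DMSO (MigR1-DMSO). The members were taken from the sample titles alone, with no measured value, and the readout was the level of 19938 mouse genes, 1 probe set each. T6E is a line of mouse T-cell leukaemia (T-ALL) that needs Notch1 to grow. Cells were exposed for 6 h to 1 uM compound E, which blocks the cleavage that frees intracellular Notch1, or to DMSO alone. Another 4 groups of 3 arrays give the frame: MigR1-GSI (empty vector with inhibitor), ICN1-GSI and ICN1-DMSO (intracellular Notch1, which needs no cleavage and can dimerize, with and without inhibitor) and R1984A-DMSO (the defective form without inhibitor). The dominant negative Mastermind group in DMSO (DNMAML-DMSO, 3 arrays) was used once, against ICN1-DMSO. R1984A-GSI and MigR1-DMSO differ in the construct and in the inhibitor at once, so a difference between them cannot be assigned to either alone. All groups are 1 cell line, and the labels do not say from which Notch1 gene the signal of the untreated cells comes. They also do not tie the 3 arrays of a group to separate cultures. The p-values then reflect only how far these arrays scatter, which can be technical.

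Notch1 is cut by gamma secretase after ligand binding or mutation, and its freed intracellular part joins the DNA-binding protein Rbpj and a Mastermind coactivator on target genes. At some targets 2 such complexes sit on a head-to-head pair of Rbpj sites and touch through the ankyrin repeats of Notch1. R1984A changes a residue of that contact, so the protein is expected to act at single sites but not to form the dimer on paired sites. In T-cell leukaemia, Notch1 is known for driving Myc and growth, and for targets such as Hes1, Nrarp, Dtx1 and Il2ra. Comparing inhibited R1984A cells with untreated cells asks which of the genes that fall under the inhibitor the defective form brings back, misses or exceeds.

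Expression values are the deposited log2 values, and every per-array list below runs from replicate 1 to replicate 3. Array medians lay between 3.90 and 4.18, and arrays of 1 group correlated at 0.982 to 0.994 over all genes. The replicate 3 array stood apart in all 8 groups: on the first axis of the within-group deviations, which held 38.9% of their variance, the replicate 3 arrays lay at 13.1 to 30.2 and the others at -21.7 to 2.6. Its part in the results was not tested beyond leaving it out. T-cell markers were present in both groups, with 10 of 12 above every array median. Cd7 was the only 1 of the 12 that was called (higher in R1984A-GSI, as were 0.632% of all genes tested). Notch1 itself was at 6.22, 6.28 and 6.17 in MigR1-DMSO, at 7.05, 7.16 and 7.0 in R1984A-GSI and at 7.39, 7.26 and 7.30 in ICN1-GSI, with a difference between the last pair of 0.25 (95% interval -0.02 to 0.51, limma adjusted p = 0.62). Both construct groups lay above the empty vector, and whether the Notch1 probe set reads the construct, the cell's own gene or both was not tested. Maml1 (-0.07) and Rbpj (-0.03), the partners of Notch1 in the complex, had R1984A-GSI minus MigR1-DMSO differences that were not called (both adjusted p = 1).

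In R1984A-GSI, 126 genes were higher than in MigR1-DMSO and 21 were lower, at an adjusted p under 0.05 in limma's moderated test over all genes (0.632% and 0.105% of the genes tested). The typical called rise was 1.75-fold and the typical called fall 1.65-fold, and 31 rises and 3 falls went past 2-fold. The 3 falls were Ccr8, a chemokine receptor, Uaca, an ankyrin repeat and coiled-coil protein, and Deptor, an inhibitor of mTOR. By measured means, the 3 with the largest rise were Chit1, a chitinase, Mas1, the receptor for angiotensin-(1-7), and Pdgfrb, a receptor for platelet-derived growth factor. For all 147 called genes the 3 arrays of one group lay above the 3 of the other, which held for 11.8% of all genes. The split between rises and falls depended on scaling and was 116 to 42 after a second quantile normalization of the arrays. The count of 147 was 69 with the spread taken from the 2 groups alone, 81 (71 higher and 10 lower) with arrays centred on their median, 311 with the replicate number as a block and 628 (400 and 228) with array weights. It was 95 without the replicate 3 array of any group, 86 without R1984A-GSI replicate 3 and 92 without MigR1-DMSO replicate 3.

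The inhibitor alone moved 33 genes. In MigR1-GSI, 27 genes were lower than in MigR1-DMSO and 6 were higher (0.135% and 0.0301% of the genes tested). Same-numbered arrays of these groups deviated together (every pair of deviations correlated above 0.1). The main fit has no block, and with the replicate number as a block the count was 82 in place of 33. It fell to 19, 21 and 16 without MigR1-GSI replicates 1, 2 and 3, and to 18, 15 and 18 without those of MigR1-DMSO. Under the inhibitor, R1984A against empty vector called 272 genes (1.36% of the genes tested; 207 higher and 65 lower, or 181 and 99 after a second quantile normalization; 179 without R1984A-GSI replicate 3). ICN1-GSI against MigR1-DMSO called 136 (0.682%), with 80 without ICN1-GSI replicate 3 and 83, 78 and 81 without MigR1-DMSO replicates 1, 2 and 3.

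Of the 27 genes lowered by the inhibitor, 19 did not differ by the test between R1984A-GSI and MigR1-DMSO, 5 were still lower and 3 were above the untreated level. Of all genes tested, 0.632% were higher and 0.105% lower in that comparison, so most genes of any kind did not differ. The 27 were chosen on the same MigR1-DMSO arrays that serve as the target level, so these counts describe the genes and are not a test of the form. Genes of the 27 outside the 10 largest named falls were named after their values were seen.

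Promoter sequences are shown for 4 genes that the results turn on, because the dimer is defined by how its sites are arranged in DNA. They are the 250 bases before the transcription start in the RefSeq annotation of mouse build GRCm38.p6, read 5′ to 3′ on the gene's strand, with capitals for TGGGAA or its complement TTCCCA, the core of an Rbpj site. Ptcra (chr17:46763713-46763962, minus strand) encodes the pre-T-cell receptor alpha chain and is a listed paired-site target. Serpinb8 (chr1:107589756-107590005, plus strand), an intracellular protease inhibitor, was brought back by R1984A and driven higher by ICN1. Rag1 (chr2:101649533-101649782, minus strand), of the antigen receptor recombinase, was raised with ICN1 and not called with R1984A. Nrarp (chr2:25180508-25180757, plus strand), a feedback inhibitor of the Notch complex, exceeded the untreated level with R1984A.
Ptcra: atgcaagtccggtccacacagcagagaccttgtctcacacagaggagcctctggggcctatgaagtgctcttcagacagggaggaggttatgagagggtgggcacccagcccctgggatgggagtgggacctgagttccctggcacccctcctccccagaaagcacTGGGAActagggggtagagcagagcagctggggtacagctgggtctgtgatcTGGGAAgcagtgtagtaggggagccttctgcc
Serpinb8: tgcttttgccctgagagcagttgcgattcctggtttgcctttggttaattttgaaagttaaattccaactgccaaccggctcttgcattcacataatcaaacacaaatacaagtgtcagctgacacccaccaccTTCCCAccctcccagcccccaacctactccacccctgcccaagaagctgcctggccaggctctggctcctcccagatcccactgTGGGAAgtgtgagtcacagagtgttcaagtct
Rag1: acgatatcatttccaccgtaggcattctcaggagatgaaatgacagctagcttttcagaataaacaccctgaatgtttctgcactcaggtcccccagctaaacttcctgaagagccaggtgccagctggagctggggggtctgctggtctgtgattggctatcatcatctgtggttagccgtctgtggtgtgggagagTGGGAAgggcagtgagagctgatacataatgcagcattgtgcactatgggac
Nrarp: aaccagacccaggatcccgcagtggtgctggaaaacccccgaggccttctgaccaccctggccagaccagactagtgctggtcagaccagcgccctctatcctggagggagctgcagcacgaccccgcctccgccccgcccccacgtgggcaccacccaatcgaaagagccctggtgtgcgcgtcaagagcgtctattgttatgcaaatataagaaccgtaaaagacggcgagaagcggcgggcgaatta

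The Ptcra window holds TGGGAA at 84 to 79 and at 32 to 27 bases before the start, both in the same orientation. Serpinb8 has TTCCCA at 116 to 111 and TGGGAA at 32 to 27 bases before the start, and Rag1 has TGGGAA at 52 to 47. No match lies in the Nrarp window. In the full table, 25.6% of 32851 windows (250 bases before to 50 after a start) hold the hexamer on either strand. A gene was counted if any of its windows held it, so the background for the counts that follow is the 27.1% of genes tested. By gene, 39 of the 106 genes with a window that were higher in R1984A-GSI held it (36.8%), as did 5 of 16 that were lower (31.2%), 3 of 19 of the genes lowered by the inhibitor (15.8%) and 27.1% of all genes tested. For genes higher in ICN1-GSI than in R1984A-GSI it was 17 of 52 (32.7%), and for those lower 35 of 124 (28.2%). A head-to-head pair with 15 to 19 bases between the hexamers was found for 9 of the 27025 genes of the table. Of the 15614 genes tested that had a window, 4 held it. None of the called genes searched did, those of R1984A-GSI against MigR1-DMSO, of ICN1-GSI against R1984A-GSI and those lowered by the inhibitor. With a pair this rare, 0 was the likely count for sets of this size. It says nothing on whether these genes have paired sites. Genes called in the other comparisons were not searched. A match is a string of letters and not a measured binding site, and sites farther from the start lie outside these windows. Only this exact hexamer was searched, so a site of another spelling would be missed. Hes1, Myc, Hey1 and Deptor had no window and were not searched.

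Hey1, a transcriptional repressor of the Hairy family and a listed dimer-independent target, came back to the untreated level. It read 9.89, 9.79 and 9.69 in MigR1-DMSO, 8.88, 8.90 and 8.59 in MigR1-GSI, and 9.94, 9.84 and 9.94 in R1984A-GSI. All 3 R1984A-GSI arrays lay far above the inhibited arrays and among or just above the untreated ones. R1984A-GSI minus MigR1-DMSO was 0.12 (95% interval -0.10 to 0.34, adjusted p = 1), so a difference above 0.34 on the log2 scale is outside the interval. ICN1-GSI, at 9.87, 10.01 and 9.89, differed from R1984A-GSI by 0.02 (-0.20 to 0.24, adjusted p = 0.99). The fall under the inhibitor alone had been 1.00 (SE 0.11, adjusted p = 2e-05).

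Dtx1 (Deltex), a ubiquitin ligase of the Notch pathway, showed the same order. Its MigR1-GSI arrays (5.42, 5.07 and 5.21) lay below every MigR1-DMSO array (6.57, 6.40 and 6.41), and its R1984A-GSI arrays (6.89, 6.65 and 6.65) above. The R1984A-GSI minus MigR1-DMSO difference was 0.27 (-0.16 to 0.69, adjusted p = 1). No array of the inhibited empty-vector group came near the other groups. Its fall of 1.23 in MigR1-GSI (adjusted p = 0.0065) was no longer called without MigR1-GSI replicate 2 (adjusted p = 0.053) or MigR1-DMSO replicate 1 (0.055). Agfg1, an Arf GTPase-activating domain protein, read 9.90, 9.92 and 10.14 untreated and 9.88, 10.03 and 9.94 in R1984A-GSI, and its inhibited arrays lay between 9.15 and 9.20. The untreated and the R1984A-GSI arrays of Agfg1 overlapped, and the difference was -0.04 (-0.23 to 0.15, adjusted p = 1).

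Capn5, a calpain protease, and Serpinb8 were brought back by R1984A and raised past that level by ICN1. Capn5 read 6.52, 6.50 and 6.22 in MigR1-DMSO, 5.59, 5.23 and 4.75 in MigR1-GSI, 6.24, 6.40 and 6.09 in R1984A-GSI, and 7.60, 7.86 and 7.43 in ICN1-GSI. The ICN1-GSI arrays stood above all others, and the R1984A-GSI arrays overlapped the untreated ones. The ICN1-GSI minus R1984A-GSI difference for Capn5 was 1.39 (SE 0.16, adjusted p = 2.7e-05), or 2.61-fold. Serpinb8 was at 6.27, 5.83 and 5.91 untreated, at 6.57, 6.10 and 6.22 in R1984A-GSI and at 8.03, 8.01 and 7.95 in ICN1-GSI, and ICN1-GSI exceeded R1984A-GSI 3.25-fold (adjusted p = 3.9e-06). The R1984A-GSI arrays of Serpinb8 overlapped the untreated ones, and the ICN1 arrays lay far above both. The pseudokinase gene Prag1 had an R1984A-GSI minus MigR1-DMSO difference of 0.21 (-0.19 to 0.60) and was 2.03-fold higher in ICN1-GSI than in R1984A-GSI (adjusted p = 0.0053; 0.073 with the spread of the 2 groups alone and 0.11 without the replicate 3 arrays).

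**Figure D1:**
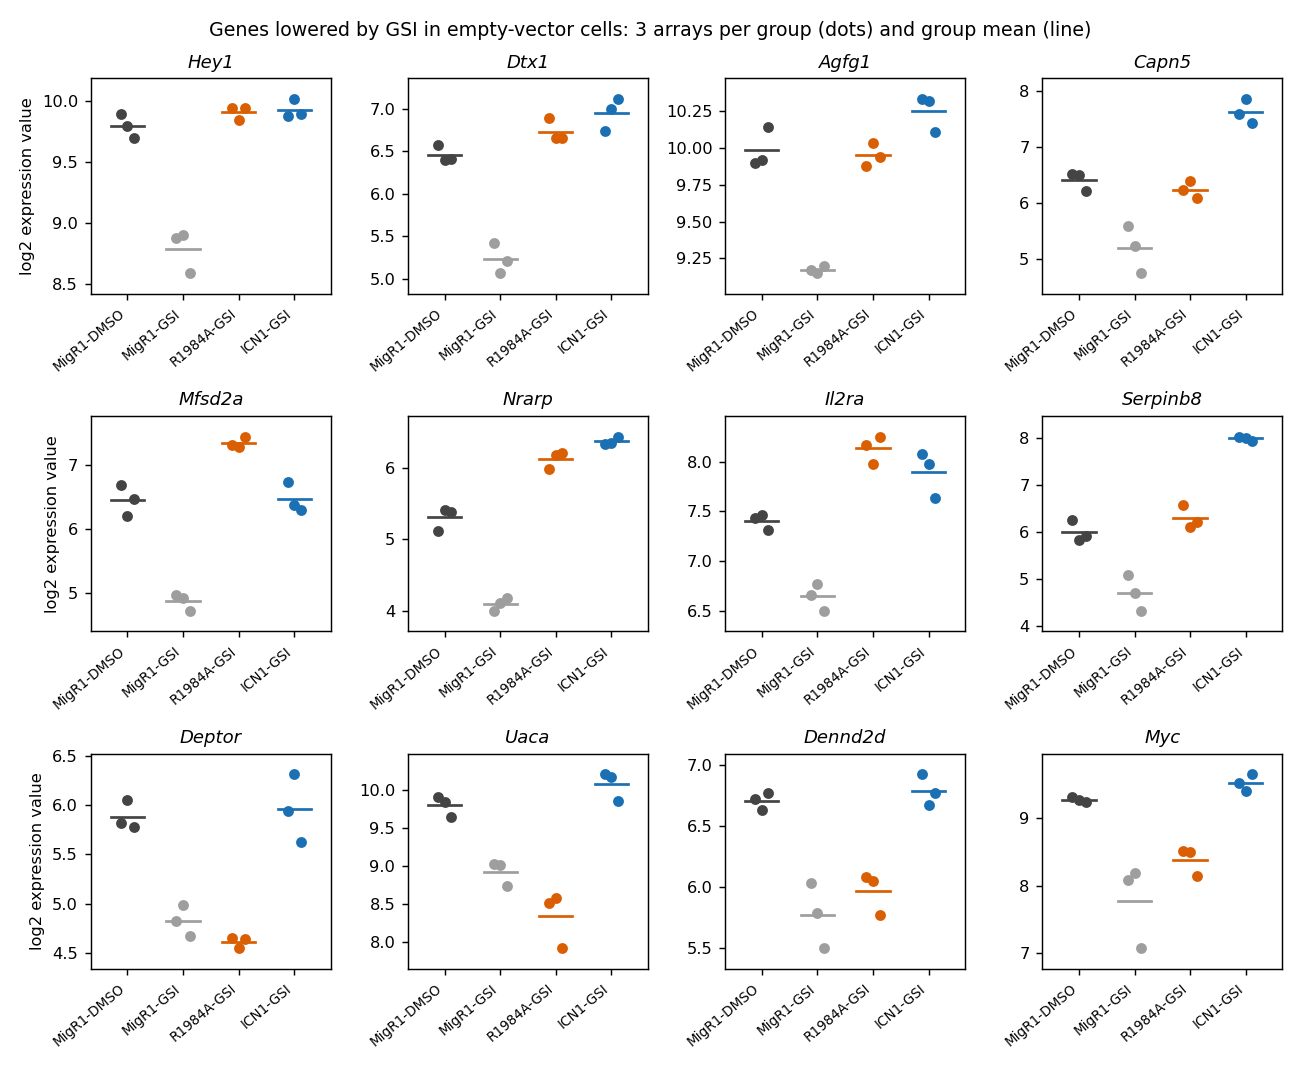
Deposited log2 values (y axis, scaled separately in each panel) of 12 genes that were lower in MigR1-GSI than in MigR1-DMSO, with 3 arrays per group as dots and the group mean as a line. In the top row the R1984A-GSI arrays sit near the untreated ones, Mfsd2a, Nrarp and Il2ra lie above them, and Deptor, Uaca, Dennd2d and Myc stay below.

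Mfsd2a, Nrarp and Il2ra exceeded the untreated level. Mfsd2a, a transporter of lysophospholipids into cells, read 6.68, 6.20 and 6.47 in MigR1-DMSO, 4.97, 4.91 and 4.72 in MigR1-GSI and 7.32, 7.28 and 7.44 in R1984A-GSI. Every R1984A-GSI array was above every untreated array, by 1.86-fold on average (log2 0.90, SE 0.17, adjusted p = 0.0055). In ICN1-GSI, at 6.73, 6.38 and 6.29, it was back among the untreated values and 1.84-fold below R1984A-GSI (adjusted p = 0.006). The rise over MigR1-DMSO was not called without MigR1-DMSO replicate 2 (adjusted p = 0.064) or with arrays centred on their median (0.051). The difference from ICN1-GSI was not called without ICN1-GSI replicate 3 (0.054) or with that centring (0.058).

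Nrarp went from 5.12, 5.41 and 5.38 untreated to 4.0, 4.10 and 4.17 with the inhibitor and to 5.98, 6.18 and 6.20 in R1984A-GSI. The groups did not overlap, and R1984A-GSI stood 1.76-fold above MigR1-DMSO (log2 0.81, SE 0.11, adjusted p = 1.3e-04). ICN1-GSI read 6.33, 6.35 and 6.43, a further 0.25 (0.03 to 0.47, adjusted p = 0.46). Il2ra, which encodes the high-affinity chain of the receptor for interleukin-2, read 7.43, 7.46 and 7.31 untreated, 6.66, 6.77 and 6.50 with the inhibitor, and 8.17, 7.98 and 8.25 in R1984A-GSI, 1.66-fold above untreated (adjusted p = 0.0086). Its 3 groups were also apart, and ICN1-GSI at 8.08, 7.98 and 7.63 overlapped R1984A-GSI (difference -0.24, -0.53 to 0.06, adjusted p = 0.72). The Il2ra rise was not called without R1984A-GSI replicate 3 (0.075), without MigR1-DMSO replicate 3 (0.064), without the replicate 3 array of any group (0.073) or after median centring (0.11). Its fall under the inhibitor was itself lost without MigR1-GSI replicates 1 (0.083) or 3 (0.15) or MigR1-DMSO replicates 1 (0.11), 2 (0.18) or 3 (0.062).

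Runx1, a transcription factor of the T lineage, Rapgef2, an exchange factor for Rap GTPases, and Rbms1, an RNA-binding protein, lay above the untreated mean without passing the test. Their R1984A-GSI minus MigR1-DMSO differences were 0.44 (0.21 to 0.66, adjusted p = 0.066), 0.35 (0.14 to 0.57, 0.2) and 0.43 (0.19 to 0.67, 0.11). In all 3 genes the R1984A-GSI arrays were above every untreated array. With array weights each passed, at adjusted p = 0.014 for Runx1, 0.0076 for Rapgef2 and 0.011 for Rbms1.

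Deptor, Uaca, Dennd2d, Zcchc2 and Myc were still below the untreated level. Deptor read 5.82, 6.05 and 5.78 in MigR1-DMSO, 4.83, 4.99 and 4.67 in MigR1-GSI, and 4.65, 4.55 and 4.64 in R1984A-GSI. Each R1984A-GSI array lay below each inhibited empty-vector array, and the mean was 2.42-fold below untreated (log2 -1.27, SE 0.16, adjusted p = 6.2e-05). R1984A-GSI minus MigR1-GSI was -0.22 (adjusted p = 0.93), so no return was measured. In ICN1-GSI, at 5.94, 6.31 and 5.63, Deptor was 2.55-fold above R1984A-GSI (adjusted p = 1.7e-05).

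Uaca went from 9.91, 9.85 and 9.65 untreated through 9.03, 9.02 and 8.74 with the inhibitor to 8.52, 8.58 and 7.92 in R1984A-GSI. These 3 groups did not overlap, and R1984A-GSI was 2.76-fold below untreated (adjusted p = 4.8e-05). ICN1-GSI, at 10.21, 10.17 and 9.86, was 3.34-fold above R1984A-GSI (adjusted p = 2.9e-06). The step from MigR1-GSI down to R1984A-GSI (-0.59) had an adjusted p of 0.14, and it passed after a second quantile normalization (0.038), with array weights (0.042), with the replicate block (0.0024) and without the replicate 3 arrays (0.037). Its inclusion among the lowered genes was not called without any 1 of the 6 arrays of MigR1-GSI and MigR1-DMSO (adjusted p between 0.077 and 0.26).

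Dennd2d, a DENN-domain activator of Rab GTPases, read 6.72, 6.63 and 6.77 untreated and 6.08, 6.05 and 5.77 in R1984A-GSI, 1.67-fold lower (adjusted p = 0.0024; 0.06 without the replicate 3 arrays). Those R1984A-GSI arrays overlapped the inhibited ones (6.03, 5.79 and 5.50), and ICN1-GSI was 1.77-fold above R1984A-GSI (adjusted p = 7.5e-04). Zcchc2, a CCHC zinc finger gene, read 8.34, 8.37 and 8.56 untreated and 7.60, 7.71 and 7.56 in R1984A-GSI, 1.74-fold lower (adjusted p = 8.7e-04). It too remained within the inhibited range, which ran from 7.35 to 7.75. The ICN1-GSI mean of Zcchc2 was 1.47-fold above R1984A-GSI (adjusted p = 0.021), a call lost without ICN1-GSI replicates 1 (0.068) or 2 (0.14) or R1984A-GSI replicates 1 (0.077) or 3 (0.1).

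Myc, the growth transcription factor, had a mean between the inhibited and the untreated means. It read 9.32, 9.27 and 9.24 in MigR1-DMSO, 8.08, 8.18 and 7.07 in MigR1-GSI, and 8.51, 8.50 and 8.14 in R1984A-GSI. The R1984A-GSI arrays were all below the untreated ones, 1.86-fold on average (log2 -0.90, SE 0.21, adjusted p = 0.042), while replicate 3 of R1984A-GSI lay inside the inhibited range. That call was lost without any 1 of the 6 arrays, at 0.082, 0.088 and 0.26 for R1984A-GSI replicates 1, 2 and 3 and at 0.17, 0.15 and 0.13 for those of MigR1-DMSO, and after median centring (0.23). ICN1-GSI, at 9.52, 9.41 and 9.65, was above every R1984A-GSI array, by 2.21-fold (adjusted p = 0.0052). R1984A-GSI minus MigR1-GSI was 0.61 (adjusted p = 0.31).

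Put on a scale from the inhibited level (0%) to the untreated level (100%), R1984A brought back a median of 86.4% of the log2 fall over the 27 genes, from -67.7% for Uaca to 197% for Il2ra. Of the 27, 11 were past 100% and 7 under 50%. The 95% Fieller interval lay wholly below 100% for 11 genes and wholly above it for 6. Hey1 stood at 112% (90.8 to 139), Agfg1 at 95.4% (74.2 to 122) and Capn5 at 86.4% (62.2 to 117). Mfsd2a stood at 156% (131 to 193) and Nrarp at 167% (144 to 198). In MigR1-GSI the Nrarp mean (4.09) lay near the medians of those arrays (3.92, 3.96 and 4.18). A fall cut short near background would make its percent too high, which was not tested. Myc stood at 40.4% (13.1 to 66.0), a value of 22.2% without MigR1-GSI replicate 3, where Myc was at its lowest. Dennd2d was at 20.7% (-8.53 to 45.0), or 7.07% without MigR1-GSI replicate 3 and 31.3% without R1984A-GSI replicate 3. Deptor was at -20.6% (-64.1 to 8.59), or -12.1% without MigR1-GSI replicate 2, and Uaca was at -43.4% without R1984A-GSI replicate 3. Among nucleolar genes, Nol8 stood at 101%, Taf1a, a factor of RNA polymerase I, at 87.7%, Rrp1b, which acts in ribosome assembly, at 42.5% (21.1% without MigR1-GSI replicate 3) and the small nucleolar RNAs Snord38a, Snord57 and Snord42a at 63.2%, 55.4% and 50%. The same scale gave a median of 118% for ICN1-GSI, with Serpinb8 at 254% and Deptor at 107%.

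**Figure D2:**
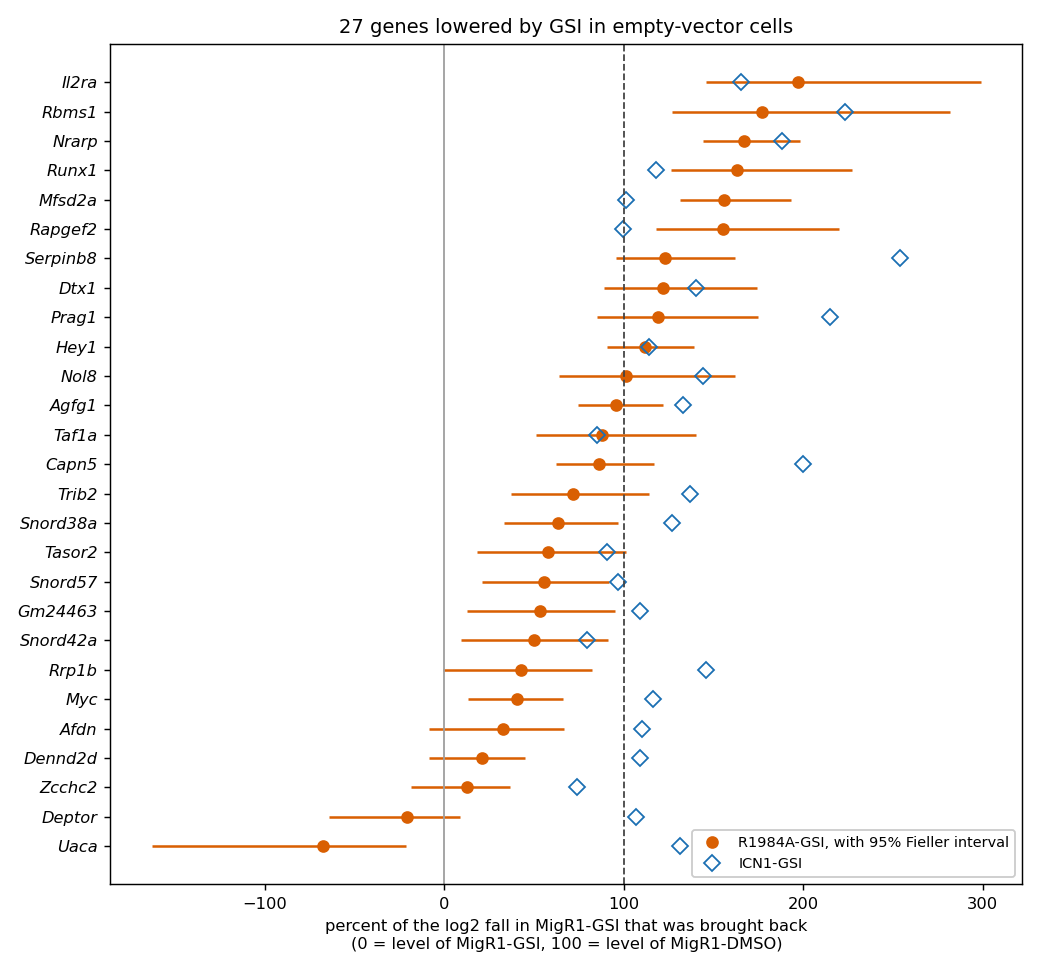
Percent of the log2 fall in MigR1-GSI that was brought back (x axis) for each of the 27 genes lowered by the inhibitor, for R1984A-GSI (filled circles with 95% Fieller intervals) and ICN1-GSI (open diamonds, no interval). Uaca, Deptor, Zcchc2, Dennd2d, Afdn and Myc lie lowest for R1984A while their ICN1 values lie between 73.8% and 131%. With 1 array left out at a time, the R1984A value of Zcchc2 (12.3%) ran from 3.67% to 22.4% and that of Afdn (32.4%) from 13.7% to 46.9%.

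Of the 6 genes raised by the inhibitor, 5 did not differ by the test between R1984A-GSI and MigR1-DMSO and 1 was lower. Of all 19938 genes tested, 19791 did not differ either, so the lack of a call does not show a return. The lower gene was Atp6v0a1, part of the proton pump of lysosomes, at 5.30, 5.16 and 5.10 untreated, 5.80, 5.74 and 6.11 in MigR1-GSI and 4.76, 4.73 and 4.50 in R1984A-GSI (log2 -0.53, SE 0.12, adjusted p = 0.041). All 3 groups were apart, and the call was lost without any 1 of the 6 arrays compared, at adjusted p from 0.071 to 0.29. Rnf125, a ubiquitin ligase, had a difference of -0.18 (-0.45 to 0.10), Lysmd3 of 0.26 (-0.04 to 0.55) and Slc35d2, a nucleotide sugar transporter, of 0.14 (-0.09 to 0.37). Ccng2, a cyclin linked to cell-cycle exit, was at 5.73, 5.60 and 5.61 in R1984A-GSI against 5.32, 5.09 and 4.96 untreated, without overlap but with an adjusted p of 0.26. The sixth, Gm4827, had a difference of 0.16 (-0.15 to 0.46). From the inhibited level (0%) to the untreated level (100%), Ccng2 stood at 37.4% (-4.04 to 73.8) and Lysmd3 at 62.4%. Slc35d2 stood at 77%, Gm4827 at 78.9%, Rnf125 at 127% and Atp6v0a1 at 176%. The untreated means of Slc35d2 (2.34), Gm4827 (3.27) and Lysmd3 (3.84) lay below every array median, so their percents rest on dim values.

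The listed paired-site targets did not act alike. Of Hes1, Hes5, Myc, Nrarp and Ptcra, 1 was higher than untreated in R1984A-GSI (Nrarp), 1 was lower (Myc) and 3 were not called. Among all genes tested, 0.632% were higher and 0.105% lower. Against R1984A-GSI, 3 of the 5 were higher in ICN1-GSI (Hes1, Ptcra and Myc), where 0.321% of all genes tested were. Hes1, a repressor of the Hairy family, read 4.65, 4.61 and 4.90 in R1984A-GSI, beside 4.81, 4.84 and 4.77 untreated (difference -0.08, -0.37 to 0.21). These arrays overlapped, and those of ICN1-GSI (5.77, 5.11 and 5.42) lay above both, 1.64-fold over R1984A-GSI (adjusted p = 0.0082). Ptcra read 4.42, 4.22 and 4.40 untreated, 3.91, 4.61 and 4.09 in R1984A-GSI and 5.10, 4.80 and 5.26 in ICN1-GSI, 1.80-fold over R1984A-GSI (adjusted p = 0.0082). The inhibitor alone had called neither Hes1 (-0.45, adjusted p = 0.52) nor Ptcra (0.04, adjusted p = 1). Hes5, of the same family as Hes1, had group means between 5.30 and 5.42 in these 4 groups and no call.

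The ICN1 over R1984A difference was lost for Hes1 without ICN1-GSI replicate 1 (adjusted p = 0.069), without R1984A-GSI replicate 2 (0.064), without the replicate 3 arrays (0.057) or with the spread taken from the 2 groups alone (0.21). For Ptcra it was lost without ICN1-GSI replicate 3 (0.069), without R1984A-GSI replicates 1 (0.068) or 3 (0.055), without the replicate 3 arrays (0.21), with array weights (0.086) or with 2 groups (0.16). Over a wider list of 30 measured Notch targets, R1984A-GSI against MigR1-DMSO called 4 higher (Notch1, Notch3, Nrarp and Il2ra) and 3 lower (Deptor, Myc and Lztfl1), beside 0.632% and 0.105% of all genes tested, with a median difference of -0.06 beside -0.01 for all genes. Notch1 is also the gene of the added construct, and whether its probe set reads the construct was not tested, so its rise need not be that of a target. Notch3, a sister receptor, was 1.63-fold higher (adjusted p = 0.0076; 0.085 without MigR1-DMSO replicate 3). Lztfl1, a ciliary trafficking gene, was 1.53-fold lower (adjusted p = 0.013), a call lost without R1984A-GSI replicates 2 (0.091) or 3 (0.096) or MigR1-DMSO replicates 1 (0.06) or 3 (0.099). Jag1, a Notch ligand named after its values were seen, read 5.36, 5.47 and 5.71 untreated and 5.72, 5.49 and 5.82 in R1984A-GSI (difference 0.16, -0.11 to 0.44).

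The inhibitor alone had not called the genes with the largest rises of R1984A-GSI over the untreated state, except that Pdgfrb (-0.62, adjusted p = 0.18) was called with the replicate block (0.047). Where a group's mean lay below every array median, the fold is given as a bound, with each of its arrays set to the higher of its own median and the measured value. Chit1 read 3.11, 3.40 and 3.49 in MigR1-DMSO and 6.37, 5.24 and 6.30 in R1984A-GSI, at least 3.85-fold higher (measured means 3.34 and 5.97, adjusted p = 6.2e-07). Its untreated arrays lay below every array median of the series and the R1984A-GSI arrays were clearly above. In ICN1-GSI it was at 5.12, 4.46 and 5.12, 2.10-fold below R1984A-GSI (adjusted p = 0.02), a call lost without ICN1-GSI replicate 2 (0.14) or R1984A-GSI replicates 1 (0.14) or 3 (0.15). Mas1 went from 3.44, 3.77 and 4.12 to 5.64, 5.32 and 6.19, at least 3.23-fold higher (measured means 3.78 and 5.72, adjusted p = 2.1e-05), and ICN1-GSI (4.32, 4.27 and 4.52) was 2.54-fold below R1984A-GSI (adjusted p = 0.0012). The ICN1 arrays of Mas1 were the lower ones throughout.

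Pdgfrb was well measured in all groups, at 7.11, 6.97 and 7.20 untreated and 8.84, 8.97 and 9.24 in R1984A-GSI, 3.78-fold higher (adjusted p = 1.5e-07). ICN1-GSI lay between them at 7.91, 8.12 and 8.35, 1.86-fold below R1984A-GSI (adjusted p = 0.0027; 0.059 with the 2 groups alone). No array of one group entered the range of another. Rras2, a Ras-family GTPase, rose 3.37-fold, from 8.26, 8.27 and 8.12 to 9.82, 9.94 and 10.14 (adjusted p = 8.1e-09), and ICN1-GSI (9.35, 9.37 and 9.43) lay 1.5-fold lower (adjusted p = 0.011; 0.093 without R1984A-GSI replicate 3). Its relative Rras rose 2.52-fold (adjusted p = 2.9e-05). The inhibitor alone gave differences of 0.04 for both genes, which were not called (adjusted p = 1).

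Myo1d, an unconventional myosin, read 4.91, 5.08 and 5.08 untreated, 6.78, 6.59 and 6.94 in R1984A-GSI (3.35-fold, adjusted p = 3.6e-04) and 5.76, 5.12 and 5.03 in ICN1-GSI. Its ICN1 arrays overlapped the untreated ones and stood 2.77-fold below R1984A-GSI (adjusted p = 0.0021; 0.065 without the replicate 3 arrays). Mical1, an enzyme that oxidises actin, rose 2.52-fold (adjusted p = 3.3e-06), Amotl1, a junction protein of the angiomotin family, 2.63-fold (8.2e-05), and Olfml3, a secreted olfactomedin-domain protein, 2.62-fold (4.3e-04). Lymphocyte receptors were also among the 12 largest, Cd28, the costimulatory receptor (3.90, 4.03 and 4.16 to 5.65, 5.35 and 5.51, 2.78-fold, adjusted p = 1.3e-04) and Gpr18, a G-protein-coupled receptor (2.45-fold, adjusted p = 0.0018). Cd7, a T-lineage surface protein, went from 4.72, 4.88 and 4.35 to 6.69, 5.56 and 7.20 (3.57-fold, adjusted p = 0.0022), with replicate 2 well under the other R1984A-GSI arrays. The Cd7 call was lost without the replicate 3 arrays (0.06) and with the 2 groups alone (0.078).

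Ccr8 showed the largest measured fall among the called genes. It read 6.58, 6.08 and 6.07 in MigR1-DMSO, 7.91, 7.79 and 7.54 in MigR1-GSI and 5.05, 4.73 and 2.86 in R1984A-GSI, 4.09-fold below untreated, or 2.56-fold without R1984A-GSI replicate 3 (adjusted p = 0.0068, and 0.039 without that array; 0.057 without MigR1-DMSO replicate 1 and 0.18 with the 2 groups alone). The R1984A-GSI arrays were all below the untreated ones, with replicate 3 far lower than the other pair, and ICN1-GSI (4.33, 4.55 and 4.02) overlapped them. Sstr2, a somatostatin receptor, was at 8.51, 8.47 and 8.25 untreated, 8.51, 8.50 and 8.10 in MigR1-GSI, 7.80, 7.48 and 7.41 in R1984A-GSI and 8.91, 8.66 and 8.70 in ICN1-GSI. It was thus 1.80-fold lower in R1984A-GSI than untreated (adjusted p = 6.9e-04) and 2.29-fold higher in ICN1-GSI than in R1984A-GSI (adjusted p = 6.3e-06), with R1984A-GSI alone below the other 3 groups. Ldlrad4, an inhibitor of TGF-beta signalling, was 1.68-fold lower (adjusted p = 0.0021; 0.056 without the replicate 3 arrays).

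The remaining named falls were weaker calls. Aff3, a nuclear protein of the AF4 family, was 1.76-fold lower (adjusted p = 0.026; 0.23 without R1984A-GSI replicate 3, 0.13 and 0.14 without MigR1-DMSO replicates 1 and 2). Npnt, a matrix protein, was 1.63-fold lower (0.034; 0.084 and 0.26 without R1984A-GSI replicates 2 and 3, and 0.16, 0.087 and 0.13 without MigR1-DMSO replicates 1, 2 and 3). Aqp11, an aquaporin, was at least 1.18-fold lower (measured means 4.29 and 3.57, 0.038) and lost the call without any 1 of the 6 arrays (0.078 to 0.19). The olfactory receptor gene Olfr371 was near or below the array medians in both groups (means 3.92 and 3.18), which leaves no fold to give, and its call (0.039) was lost without R1984A-GSI replicates 1 (0.24) or 2 (0.11) or MigR1-DMSO replicates 1 (0.065) or 3 (0.32).

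**Figure D3:**
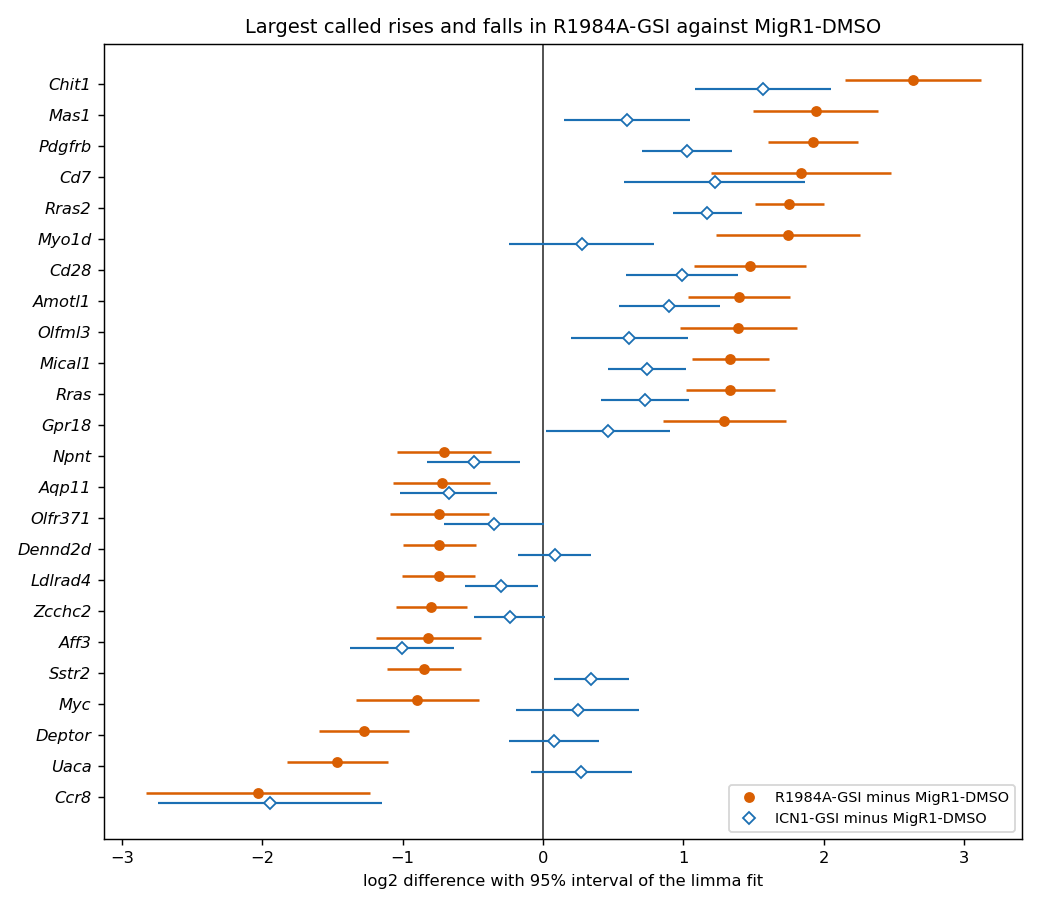
Log2 difference from MigR1-DMSO (x axis) with the 95% interval of the limma fit for the 12 largest called rises and 12 largest called falls of R1984A-GSI (filled circles), with the values of ICN1-GSI (open diamonds) against the same MigR1-DMSO arrays. The genes were picked for their R1984A-GSI value. For Sstr2, Deptor, Uaca, Myc and Dennd2d the ICN1 value lies on the other side of 0.

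Construct and empty vector were also compared on arrays outside both groups, with the inhibitor exchanged (R1984A-DMSO against MigR1-GSI, a comparison chosen after the first values were seen). There, 249 genes were higher and 65 lower (1.25% and 0.326% of the genes tested). Of the 126 genes higher in R1984A-GSI than in MigR1-DMSO, 111 were also called higher on these arrays (88.1% of the 126 and 44.6% of the 249), and all 126 had a positive difference. Among the 21 lower genes, 12 were called lower (57.1% of the 21 and 18.5% of the 65), 17 had a negative difference and none was called higher. Pdgfrb (2.54, adjusted p = 5.1e-10), Chit1 (2.91, 4.5e-08) and Ccr8 (-3.52, 4e-06) kept their side. Deptor (0.01, adjusted p = 1) and Uaca (-0.32, adjusted p = 0.69), both lowered by the inhibitor in empty-vector cells, were not called there. Deptor had a mean of 4.84 in R1984A-DMSO and of 4.83 in MigR1-GSI.

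ICN1-GSI and R1984A-GSI were compared directly, both with inhibitor and, by their labels, differing in the form of Notch1. The level of each construct was not measured separately. In ICN1-GSI, 64 genes were higher and 156 lower than in R1984A-GSI (0.321% and 0.782% of the genes tested), and the split was 123 to 165 after a second quantile normalization. The count of 220 fell to 115 without ICN1-GSI replicate 3, to 122 without R1984A-GSI replicate 2 and to 132 without R1984A-GSI replicate 3. On the arrays in DMSO, which are others, 43 of the 64 were higher and 92 of the 156 lower in ICN1 than in R1984A (67.2% and 59.0% of the genes, 82.7% of 52 and 65.7% of 140 called there, where 0.261% and 0.702% of the genes tested were called), and none was called the opposite way.

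The 6 largest named rises of ICN1-GSI over R1984A-GSI included both genes of the antigen receptor recombinase. Rag1 read 7.99, 7.90 and 7.36 in ICN1-GSI and 4.59, 4.79 and 4.08 in R1984A-GSI, 9.62-fold apart (adjusted p = 1.1e-06). Its untreated arrays, at 5.84, 5.40 and 4.43, overlapped those of R1984A-GSI, and the difference of -0.74 (-1.38 to -0.10) was not called (adjusted p = 0.64). Rag2, its partner in the recombinase, read 5.64, 5.22 and 4.50 in ICN1-GSI and 2.78, 2.49 and 2.33 in R1984A-GSI, at least 2.09-fold apart (measured means 5.12 and 2.53, adjusted p = 5.3e-08). Untreated cells had Rag2 at 2.96, 2.67 and 2.54, below every array median, and of these 3 groups only ICN1-GSI had arrays above them. Iftap, a gene beside the Rag genes, differed at least 7.51-fold (7.39, 7.28 and 6.22 against 3.81, 3.18 and 2.54, measured means 6.96 and 3.18, adjusted p = 1.9e-08).

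Tmem255a, a transmembrane protein gene, was at 6.66, 6.99 and 7.58 in ICN1-GSI and between 3.37 and 3.70 in R1984A-GSI and untreated cells alike, at least 8.11-fold over R1984A-GSI (measured means 7.08 and 3.55, adjusted p = 4.2e-09). Zfp750, a zinc finger regulator known from the epidermis, was 6.71-fold higher (7.58, 7.41 and 7.84 against 4.74, 5.03 and 4.82, adjusted p = 1.6e-10). Il10, an anti-inflammatory cytokine, was at least 2.05-fold higher (measured means 5.09 and 3.27, adjusted p = 8.4e-06). For none of these 6 genes did R1984A-GSI differ from MigR1-DMSO by the test. The intervals of that difference were -0.57 to 0.42 for Tmem255a, -0.04 to 0.60 for Zfp750, -0.62 to 0.24 for Rag2, -0.58 to 0.25 for Il10 and -1.15 to 0.01 for Iftap.

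In the other direction, Slc15a1, a peptide transporter, was 4.44-fold lower in ICN1-GSI than in R1984A-GSI (6.21, 6.40 and 4.28 against 7.90, 7.91 and 7.53, adjusted p = 9.7e-04; 0.12 with the 2 groups alone). Replicate 3 was the lowest ICN1-GSI array, and without it the difference was 2.78-fold (adjusted p = 5.6e-04). Tmem273 was 4.33-fold lower (adjusted p = 0.0012), and its R1984A-GSI arrays (7.93, 7.34 and 7.27) stood above the untreated ones (6.69, 6.52 and 5.65) with an adjusted p of 0.13. Rgs1, which ends G-protein signalling, was 2.97-fold lower in ICN1-GSI than in R1984A-GSI (adjusted p = 8.4e-06). With R1984A it was 1.86-fold above untreated (5.75, 5.73 and 5.65 against 4.76, 4.78 and 4.92, adjusted p = 0.0075; 0.097 after median centring), and its ICN1-GSI arrays were below the untreated ones. Lrrc6, a gene of ciliary motor assembly, was 2.90-fold lower (adjusted p = 0.0062; 0.068 without ICN1-GSI replicate 3) and had an R1984A-GSI minus MigR1-DMSO difference of 0.01 (-0.59 to 0.62).

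A set of Notch-responsive genes was taken from 6 arrays that belong to none of R1984A-GSI, MigR1-DMSO and ICN1-GSI, ICN1-DMSO against DNMAML-DMSO, where 603 genes were higher and 642 lower (3.02% and 3.22% of the genes tested). The ICN1-DMSO arrays also served in the comparison on DMSO arrays above, and the estimate of the spread is shared by all comparisons. ICN1-DMSO and ICN1-GSI carry the same construct, so genes picked for their level in ICN1 cells lean to that side in ICN1-GSI by selection. The values of these sets in ICN1-GSI against R1984A-GSI are therefore a description and not separate support. Same-numbered arrays deviated together here too, and the count of 1245, from the fit without a block, was 2100 with the block. Of the 603 Notch-raised genes, 48 were higher in R1984A-GSI than untreated (7.96% of the set and 38.1% of the 126) and 6 were lower (0.995% of the set and 28.6% of the 21), beside 0.632% and 0.105% of all genes. Their median difference was -0.07, beside -0.01 for all genes. Against R1984A-GSI, 56 of the 603 were higher in ICN1-GSI (9.29%) and 13 lower (2.16%), with a median of 0.24. Among the 642 Notch-lowered genes, 6 were higher (0.935%) and 11 lower (1.71% of the set and 52.4% of the 21) in R1984A-GSI than untreated, with a median of -0.03. In ICN1-GSI against R1984A-GSI, 69 of them were lower (10.7%) and 0 higher, with a median of -0.23. Nrarp, Pdgfrb, Chit1 and Il2ra belong to the Notch-raised genes that exceeded the untreated level, and Deptor, Uaca, Myc, Dennd2d and Zcchc2 to those that stayed under it.

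**Figure D4:**
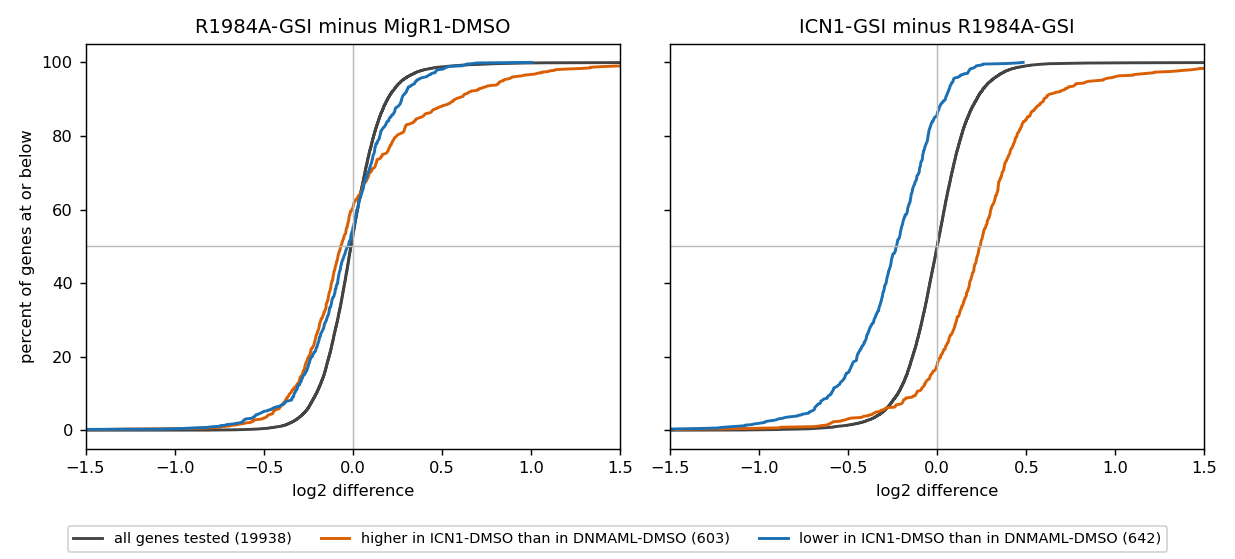
Cumulative percent of genes (y axis) by log2 difference (x axis, shown from -1.5 to 1.5) for R1984A-GSI minus MigR1-DMSO (left) and ICN1-GSI minus R1984A-GSI (right), for all 19938 genes and for the genes higher (603) or lower (642) in ICN1-DMSO than in DNMAML-DMSO. On the left the medians of the 3 curves lie between -0.07 and -0.01 and the Notch-raised curve has a long upper tail. On the right the medians lie at 0.24 and -0.23 on either side of all genes. The sets were picked with ICN1 cells, and ICN1 cells are also on 1 side of the right panel.

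Other pathways were read from fixed lists, as counts of their measured members in R1984A-GSI against MigR1-DMSO. In that comparison 0.632% of all genes tested were higher and 0.105% lower. With so few genes called, a count of 0 in a list of this size says little about the pathway. Of 53 Myc and ribosome biogenesis genes, 0 were called in limma, 15 had an unadjusted p under 0.05 (as did 1260 of all genes, 6.32%) and the median difference was -0.23. The median of this list was -0.24 in MigR1-GSI against MigR1-DMSO and 0 in R1984A-GSI against MigR1-GSI, beside 0.005 and -0.012 for all genes. In ICN1-GSI against R1984A-GSI, 6 of the 53 were higher, with a median of 0.34, where 0.321% of all genes tested were higher. None of 28 genes of the Notch machinery was called (2 at an unadjusted p under 0.05), nor any of 27 G1/S genes (0), 26 G2/M genes (1), 18 cytokine receptors (4), 18 cholesterol synthesis genes (3), 20 amino acid stress genes (2) or 16 p53 and apoptosis genes (2). Of 22 quiescence genes, 2 were higher: Bcl6, a transcriptional repressor (4.90, 4.85 and 5.10 to 6.12, 5.89 and 6.22, 2.18-fold, adjusted p = 0.0014), and Foxp1, a forkhead factor (1.48-fold, 0.041; lost without any 1 of the 6 arrays, 0.08 to 0.18). Both were lower again in ICN1-GSI than in R1984A-GSI, Bcl6 by 2.10-fold (adjusted p = 0.0021) and Foxp1 by 1.49-fold (0.029; 0.17 and 0.086 without ICN1-GSI replicates 1 and 3 and 0.099, 0.08 and 0.12 without R1984A-GSI replicates 1, 2 and 3).

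Cd28 was the only gene called of 27 T-lineage stage and signalling genes, and Ccr8 of 19 migration receptors. Of all genes tested, 0.632% were called higher and 0.105% lower. For the lists and markers in this paragraph, 0 or 1 call therefore says little about the list. Ccr9, a thymic homing receptor named after its values were seen, read 9.15, 8.92 and 9.03 untreated and 8.41, 7.99 and 7.44 in R1984A-GSI, all lower, with a difference of -1.09 (-1.65 to -0.52) that was not called (adjusted p = 0.071; 0.037 without R1984A-GSI replicate 1). Irf9, a mediator of interferon signalling, was the 1 gene called of 17 interferon genes (5.59, 5.46 and 5.06 to 6.45, 6.36 and 6.48, 2.09-fold, adjusted p = 0.0024), and its ICN1-GSI arrays (6.75, 6.00 and 6.35) overlapped those of R1984A-GSI. Of the markers of other cell types, 0 of 7 for B cells lay above every array median untreated and 1 in R1984A-GSI, and 0 of 9 myeloid markers in either group. The counts were 4 untreated and 3 in R1984A-GSI of 6 erythroid and megakaryocyte markers, 1 and 2 of 6 natural killer markers, 2 and 2 of 8 mast cell markers and 4 and 4 of 9 stromal or epithelial markers. No marker of B, myeloid, erythroid, natural killer, mast or stromal cells was called. The mean level over the 9 myeloid markers ran from 3.18 to 3.23 over the untreated arrays and from 3.07 to 3.28 over those of R1984A-GSI.

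The inhibitor had no called effect in cells that carry R1984A. Between R1984A-GSI and R1984A-DMSO, 0 genes passed in limma (0% of the genes tested), also under every alternative fit, and 635 had an unadjusted p under 0.05. Hey1, for example, differed by -0.12 between these groups, beside -1.0 in empty-vector cells. Deptor differed by -0.23, beside -1.06, but in R1984A-DMSO it was already near its MigR1-GSI mean of 4.83 (5.88 in MigR1-DMSO). Its small difference therefore does not mean that its untreated level was kept up. The test of the difference between the responses called 5 genes (0.0251% of the genes tested, 701 at an unadjusted p under 0.05), namely Mfsd2a, Nrarp, Hey1, Agfg1 and Snord38a.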

How the data were processed

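RNA of 24 samples (8 groups of 3) was read on a microarray with 35556 probe sets. The authors deposited log2 values; per the submitters' processing notes the tools were oligo and limma, and the normalization and its parameters are not given in the sources used here. Raw scanner files were not used here. Of the probe sets, 21789 have 1 gene symbol, 1621 several and 12146 none in the platform annotation; 21698 of the first matched RefSeq symbols. Genes with several probe sets (999) were read by whichever probe set was brightest on average, which left 19938 genes.

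Groups came from the sample titles. A mean per group was fitted over all 24 arrays with limma 3.58.1 in R 4.3.3 (lmFit and eBayes, 16 residual and 6.56 prior degrees of freedom) with no block, and p-values were adjusted by Benjamini-Hochberg over all genes (threshold 0.05, 2-sided). Differences are log2 values of the first group minus the second. The share brought back is (R1984A-GSI minus MigR1-GSI) over (MigR1-DMSO minus MigR1-GSI), with a Fieller interval. Deviations of same-numbered arrays of R1984A-GSI and MigR1-DMSO correlated at 0.438, -0.05 and 0.501, so not every pair deviated together. Those of MigR1-GSI and MigR1-DMSO (lowest 0.158) and of ICN1-DMSO and DNMAML-DMSO (lowest 0.11) all did. The main calls and gene sets still come from the fit without a block, and the block was an alternative setting only. Named genes are the largest called changes whose arrays do not overlap (12 each way against MigR1-DMSO, 10 for the inhibitor, 6 for ICN1), the listed Notch targets, and up to 4 called members of each of the other lists; clones and small RNAs were left out of the ranking. The comparison and the 22 gene lists were chosen with earlier results of these data known, and R1984A-DMSO against MigR1-GSI and ICN1-DMSO against R1984A-DMSO were added after values were seen. Tested on simulated data with 200 of 19938 genes changed, the fit for R1984A-GSI against MigR1-DMSO recovered 88% of changes of 1 and 100% of changes of 2 on the log2 scale, with 8 false calls. The simulated noise was independent between genes and arrays, without the shared deviation of the replicate 3 arrays. Changes under 1 were not simulated, so these figures check the fit and do not give its error rates on these arrays. With 3 arrays a group, their number limits the precision. Alternatives were the groups compared alone, other scalings, probe set rules, array weights, trend and robust spread, a replicate block, each array left out, and, added after seeing the data, all replicate 3 arrays left out.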

Additional observations from a re-analysis of the deposited data

Results flagged for a closer look

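The response to the inhibitor differed between R1984A cells and empty-vector cells for 5 genes, tested as the difference of the responses in limma over all 19938 genes. For Nrarp the responses were -0.04 and -1.21, a difference of 1.179 (SE 0.15, adjusted p = 0.0014). For Mfsd2a they were -0.17 and -1.59, a difference of 1.416 (SE 0.24, adjusted p = 0.03). Hey1 had -0.12 and -1.0, a difference of 0.877 (SE 0.15, adjusted p = 0.03), and Agfg1 -0.05 and -0.82, a difference of 0.767 (SE 0.13, adjusted p = 0.03). Snord38a, a small nucleolar RNA that the naming rule had left out, had 0.31 and -0.93, a difference of 1.246 (SE 0.22, adjusted p = 0.03). Deptor, Uaca and Dennd2d, which stayed low with R1984A, were not among them. With 3 arrays a group, no group was tested for an array far from the others.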

How the results depend on the processing

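Of 4540 gene values over all alternatives, 4106 kept their side of the threshold, 355 lost a call and 79 gained one. In 91 the sign changed, none of them called with all arrays or under the alternative, and all within 0.188 of 0 with all arrays. The share brought back by R1984A stayed within 1 SD (8.68) of its main value, at 79.9% to 90.4%. That SD is taken over 3 medians, 1 for each R1984A-GSI array. The genes lowered by the inhibitor were picked with all arrays and not picked again under each setting, so this range leaves out the effect of their choice. Counts of called genes moved more, given here for R1984A-GSI against MigR1-DMSO, MigR1-GSI against MigR1-DMSO, R1984A-GSI against MigR1-GSI, ICN1-GSI against MigR1-DMSO and ICN1-GSI against R1984A-GSI in that order. With the spread taken from the 2 groups alone they were 69, 4, 96, 63 and 51, and with array weights 628, 51, 690, 255 and 739 (1936 for ICN1-DMSO against DNMAML-DMSO). Leaving out 1 array at a time gave 86 to 108, 15 to 21, 179 to 244, 78 to 109 and 115 to 184. With arrays centred on their median the counts were 81, 16, 77 and 99 for these comparisons except R1984A-GSI against MigR1-GSI, and 777 for ICN1-DMSO against DNMAML-DMSO. Without the replicate 3 arrays they were 95, 17 and 129 for R1984A-GSI against MigR1-DMSO, MigR1-GSI against MigR1-DMSO and ICN1-GSI against R1984A-GSI. The cause of these shifts was not tested, except that the single-array and replicate 3 settings leave fewer arrays.

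With the replicate number as a block, the counts were 311, 82, 496, 271 and 577, and 2100 for ICN1-DMSO against DNMAML-DMSO. By their labels, same-numbered arrays of R1984A-GSI and MigR1-DMSO share only a number. Their deviations correlated at 0.438, -0.05 and 0.501, so replicates 1 and 3 deviated together and replicate 2 did not. What the replicate number stands for was not tested. R1984A-GSI against R1984A-DMSO called 0 genes under each setting. Genes near the array medians, such as Rag2 and Olfr371, are measured close to background.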
